A study of Mus musculus with 26 samples.

Results

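Motor cluster 2 (Mot_2) is one of 4 groups into which the authors divided thalamic neurons that project to motor cortex in the mouse, and it is the group of those 4 with the most Tnnt1. Its members are the cells to which the authors' cell table gives the cluster name Mot_2. They number 152 of 484 motor-projecting cells and of 1972 cells in the whole series. The cells came from 5 animals, which gave 11, 1, 23, 20 and 97 Mot_2 cells and are called motor animals 1 to 5 here. The 3 clusters from the same animals with which Mot_2 was compared were Mot_1 (97 cells), Mot_3 (159 cells) and Mot_4 (69 cells).

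Thalamic projection neurons are glutamatergic cells that pass sensory, motor and limbic signals to the cortex. They are often ordered along an axis from "core" neurons, which project to the middle layers of primary cortical areas, to "matrix" and midline neurons, whose axons spread over upper layers and wider areas. Motor cortex receives from the ventral motor nuclei and from intralaminar nuclei, so neurons labelled from it span much of that axis. Tnnt1 encodes the slow skeletal muscle form of troponin T and is used as a marker of core-type thalamic neurons. In the mm10 build it lies on the minus strand of chromosome 7 between positions 4504570 and 4516382, in the GENCODE M21 annotation.

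All cells of the series were fluorescent neurons that had been labelled retrogradely from 1 of 5 cortical systems, freed from slices of thalamus with protease in the presence of blockers of neural activity, and picked by hand. Each was lysed in a well with synthetic spike-in RNA, and the ends of its polyadenylated transcripts were counted by unique molecular identifiers (UMIs), so that each value is a count of distinct transcript molecules. All animals were recorded as male. The cell table gives ages of 112 for motor animals 1 and 2, of 69 for animals 3 and 4 and of 71 for animal 5, with no unit. Animals 1 and 2 were sequenced in batch 1, animal 5 in batch 2, and animals 3 and 4 in batch 3, so that batch, age and animal cannot be told apart. The somatosensory animals used for comparison were all in batch 2 (ages 64, 64 and 78), and the auditory ones were in batch 1 (age 104), batch 2 (81 and 81) and batch 3 (70). The strain, genotype and tracer are not given in the sources used here, and the motor cells share 1 labelled target. The same 375 well barcodes served on most plates (372 occurred on more than 1), and cells were therefore told apart by plate and barcode together. Cells were picked singly, and no doublet caller was run.

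The share of motor cells that fell in Mot_2 differed widely between animals. It was 14.9% in animal 1, 1.22% in animal 2, 28.8% in animal 3, 24.1% in animal 4 and 58.8% in animal 5. Over all motor cells it was 31.4% (exact binomial 95% interval 27.3 to 35.7, which covers counting error only). Motor cells with no cluster, found in animals 1, 2 and 3, count in the denominators of these shares. Animal 5 alone held 63.8% of the Mot_2 cells. All 10 plates with cells of animal 5 held Mot_2 cells, at 38.1% to 92.3% of its cells on a plate. Only the 4 animals with at least 10 Mot_2 cells entered the sums described next. The single Mot_2 cell of animal 2 was not used there.

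**Figure D1:**
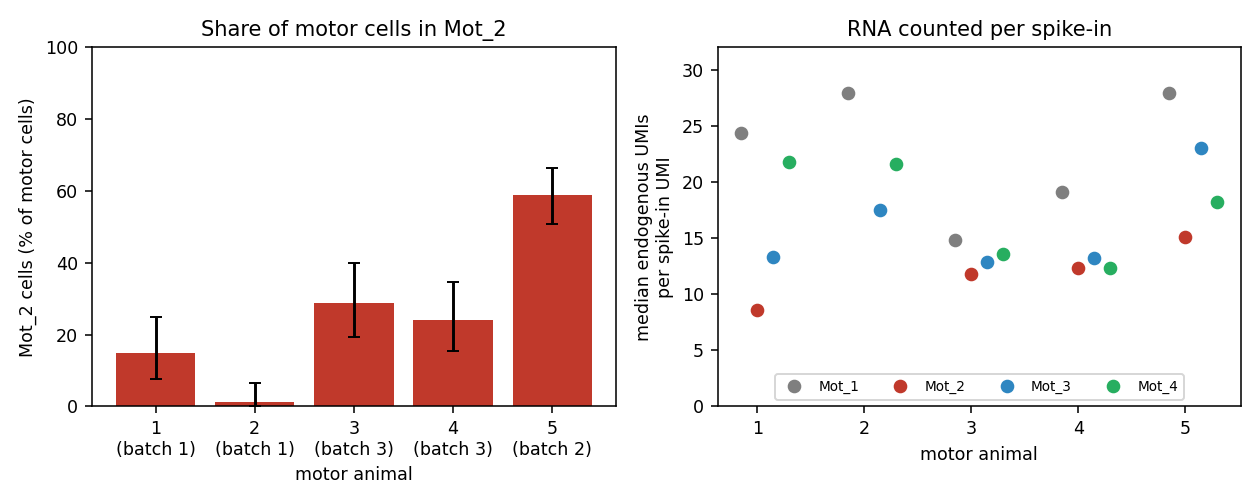
Left, bars give the share of motor cells in Mot_2 (percent) for each of 5 motor animals, with exact binomial 95% intervals. Right, points give the median number of endogenous UMIs per spike-in UMI for each motor cluster with at least 5 cells in an animal; in animals 1, 3 and 5 the Mot_2 point (8.63, 11.8 and 15.1) lies below those of the other clusters, and in animal 4 it equals that of Mot_4 (12.3).

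The amount of RNA counted per spike-in was lower in Mot_2 cells than in the other motor cells of the same animal in each of 4 animals, a difference that the number of animals is too small to call. The median number of endogenous UMIs per spike-in UMI was 8.63 in Mot_2 against 16.9 in the other clusters of animal 1. In animal 3 these medians were 11.8 and 13.8, in animal 4 12.3 and 13.7, and in animal 5 15.1 and 20. The ratio was below 1 in 4 of 4 animals, 0.738 on geometric average (log2 ratio -0.44 ± 0.37, SD, n = 4 animals). The exact two-sided sign-flip permutation test gave p = 0.125, which is the smallest value that 4 animals allow, so the design could not reach 0.05. Median UMIs per cell were lower too, with a mean log2 ratio of -0.44 ± 0.35 (SD, n = 4; exact permutation p = 0.125). Without animal 1 the ratio per spike-in was 0.834, below 1 in 3 of 3 animals. Spike-in UMIs per cell were lower in 1 of the 4 animals and higher in 3, with a mean log2 ratio of 0.09 ± 0.20 (SD, n = 4; exact permutation p = 0.375). Whether depth had a part in the gene differences below was not tested.

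Mot_2 carried the markers of thalamic glutamatergic neurons. All 7 genes of that list, among them the vesicular glutamate transporter Slc17a6 and the transcription factors Tcf7l2 and Lef1, were detected, and their summed level was 9410 to 10500 CPM over the 4 animals. CPM is a gene's count in a sum of cells, scaled to a common total of UMIs. Markers of endothelial and mural cells summed to at most 9.91 CPM in Mot_2 and those of oligodendrocyte lineage cells to at most 54.4 CPM. Astrocyte markers summed to 204 to 292 CPM, of which Gfap, Agt and Mlc1 were at 0, against 260 to 838 CPM in the other motor clusters. Microglia markers summed to 70.7 to 230 CPM with Cx3cr1, P2ry12 and Tmem119 at 0, and markers of GABA neurons, a list that includes Pvalb, to 1.96 to 19.8 CPM with Slc32a1 at 0. In all, 4 of 152 Mot_2 cells held 3 or more markers of another cell type.

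Tnnt1 was higher in Mot_2 than in the mean of the other motor clusters in each of the 4 animals, but animal 1 differed in level. Its level in Mot_2 was 86.7 CPM in animal 1, 418 in animal 3, 420 in animal 4 and 416 in animal 5. In the 13 sums of the other motor clusters it ranged from 21.9 to 178 CPM, with means of 56.4 ± 37.3 in Mot_1 (SD, n = 5), 45.6 ± 4.89 in Mot_3 (n = 5) and 147 ± 30.2 in Mot_4 (n = 3). Animals 3, 4 and 5 therefore lay above all sums of the other clusters, while animal 1 lay above its own Mot_1 (63.3) and Mot_3 (49.3) sums but below the highest Mot_1 sum and all 3 Mot_4 sums. The fitted log2 fold, taken over the averaged 3 other clusters, was 2.08 ± 0.30 (SE), and 2.48 without animal 1. Cell by cell, 138 of 152 Mot_2 cells (90.8%) held a Tnnt1 UMI, and 84.2% did so when every cell was thinned to 20000 UMIs. After the same thinning 30.9% of Mot_1, 34.6% of Mot_3 and 47.8% of Mot_4 cells held one.

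Across the 17 clusters of the series, Mot_2 was the sixth by mean Tnnt1, with 335 CPM ± 166 (SD, n = 4). The visual cluster Vis_1 was highest with 977 CPM ± 92.4 (n = 3), followed by Aud_1 with 698 ± 66.2 (n = 4), Pfr_1 with 612 in its 1 sum, Som_1 with 501 ± 20.97 (n = 2) and Som_2 with 482 ± 40.7 (n = 3). Vis_2, next below, had 238 ± 82.0 (n = 4), and its range of 143 to 342 CPM overlapped that of Mot_2. Of the 3 marker genes Tnnt1, Necab1 and Calb2, which are used to place thalamic neurons along the core to midline axis, Tnnt1 was the highest in CPM in 120 Mot_2 cells (78.9%), Necab1 in 23 and Calb2 in 1. In animal 1 Tnnt1 was the highest of the 3 in 4 of 11 cells, against 15 of 23, 18 of 20 and 82 of 97 in animals 3, 4 and 5.

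**Figure D2:**
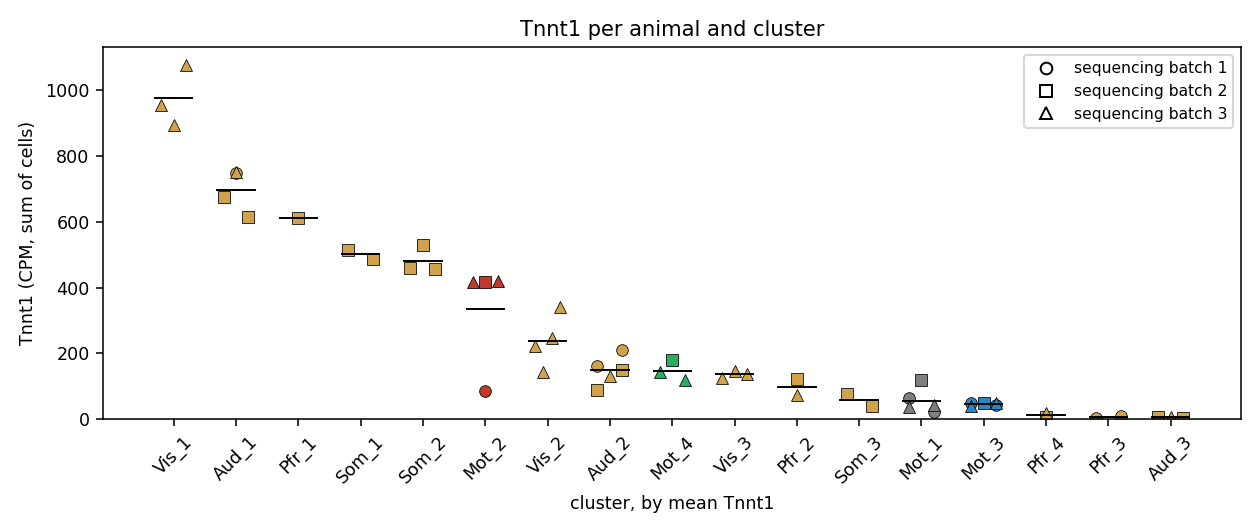
Tnnt1 level (CPM of summed counts) for every animal and cluster with at least 10 cells, ordered by the cluster mean (line), with marker shapes for the 3 sequencing batches and colours for the 4 motor clusters. Of the 4 Mot_2 sums, 3 lie between 416 and 420 CPM and the batch 1 sum lies at 86.7 CPM.

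Beyond Tnnt1, the Mot_2 sum of animal 1, which rests on 11 cells, stood apart from the other 3. Over 12175 genes with a mean of at least 10 CPM in some cluster, the root mean square difference of log2(CPM + 1) was 1.60 to 1.71 between animal 1 and the others. Among animals 3, 4 and 5 it was 0.98 to 1.18. Counts over all genes are therefore given with and without it, and list counts without it wherever they differ.

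Against the other motor clusters, 397 of 13150 genes (3.02%) were higher in Mot_2 and 660 (5.02%) lower. A gene was counted when it differed at least 2-fold in the fit and in the same direction in all 4 animals. Animal 1 had no Mot_4 sum, since it gave 5 Mot_4 cells, so its direction was judged against Mot_1 and Mot_3 only. Because the authors drew the clusters from these same counts, the numbers describe the cluster and carry no p-value. Fewer animals had to point the same way when 1 was left out, and the counts rose. They were 649 higher and 699 lower without animal 1, 752 and 1129 without animal 3, 722 and 1053 without animal 4, and 650 and 1262 without animal 5. Without animal 1, 306 of the higher and 485 of the lower genes were among those counted over 4 animals. All 15 and 15 leading genes named next passed again. They had been picked for large folds in the same direction in all 4 animals, so this was largely fixed in advance. Of the 397 higher genes, 334 were at least 2-fold above Mot_1, 294 above Mot_3 and 257 above Mot_4, and 154 above each of the 3. Of the 660 lower genes, 315 were at least 2-fold below each of the 3.

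The leading higher genes included receptors for peptides and transmitters. Sstr3, a somatostatin receptor that couples to inhibitory G proteins, was at 32.9, 29.0, 46.2 and 45.7 CPM in Mot_2 of animals 1, 3, 4 and 5. In the other motor clusters it reached at most 26.7 CPM, in Mot_4, and at most 0.85 CPM in Mot_1, so the ranges did not overlap. Its fitted log2 fold was 4.12 ± 0.69 (SE), the largest of the 15 higher genes. Chrm2, the M2 muscarinic acetylcholine receptor, was at 1.34 CPM in animal 1 and at 62.9, 27.7 and 46.2 CPM in animals 3, 4 and 5, with a log2 fold of 2.77 ± 0.76. Adgrf5, an adhesion G protein-coupled receptor, was at 165 to 223 CPM in Mot_2, at most 7.40 CPM in Mot_1 and at most 32.1 CPM in Mot_3. Mot_4 held as much of it (182 to 268 CPM), and its log2 fold of Mot_2 over Mot_4 was 0.26. Gprc5b, an orphan receptor, had 27.7 to 58.5 CPM and a log2 fold of 3.03 ± 0.75.

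A second set encodes secreted and matrix proteins. Sema3e, a secreted semaphorin that signals through plexin D1, was at 29.6, 31.4, 44.3 and 15.9 CPM in Mot_2 and at 0 to 13.02 CPM in the other 13 sums, with no overlap (log2 fold 4.07 ± 0.82). Eln, which encodes elastin, had 47.0, 20.1, 3.30 and 19.6 CPM against at most 6.36 CPM elsewhere, so that only animal 4 overlapped. Tnc, the matrix glycoprotein tenascin C, and Col16a1, a collagen chain, were high in both Mot_2 and Mot_4: their log2 folds over Mot_1 were 4.77 and 4.60, and over Mot_4 0.20 and 0.19. Pcdhb14, a clustered protocadherin of the cell surface, had a log2 fold of 2.89 ± 1.03.

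Kcnip3 belongs to the calcium-binding proteins that associate with Kv4 potassium channels, and is also known as DREAM or calsenilin. It was at 149, 114, 172 and 116 CPM in Mot_2 and at most 53.9 CPM in any other sum (log2 fold 2.81 ± 0.57). The remaining leading higher genes were Sytl2 (log2 fold 3.07), which encodes a Rab27 effector of vesicle traffic, Pstpip1 (2.89), a cytoskeletal adaptor, Mvp (3.20), the main protein of vault particles, Tbc1d32 (2.89), a protein of primary cilia, and Lrriq1 (3.84). Pstpip1 was at least as high in Mot_4 (log2 fold of Mot_2 over Mot_4 -0.62). Tbc1d32 was at 99.5 CPM in animal 1 and at 13.9 to 26.5 CPM in the others.

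The leading lower genes included synaptic organizers and proteins of vesicle fusion. Stxbp6, which encodes amisyn, a SNARE-binding protein, was at 2.69, 1.47, 5.95 and 4.50 CPM in Mot_2 and at 25.1 to 320 CPM in the other 13 sums, a gap with no overlap (log2 fold -4.98 ± 0.41). Cbln2, a cerebellin that bridges neurexins to postsynaptic receptors, was at 39.0 CPM in animal 1 and at 0 to 0.98 CPM in animals 3, 4 and 5, against 202 to 488 CPM in Mot_1 and 225 to 311 CPM in Mot_3. Cbln2 was also low in Mot_4, at 0.96 to 38.1 CPM, which overlapped Mot_2. Its relative Cbln1 was at 0 in animals 1, 3 and 4 and at 3.44 CPM in animal 5. Cbln1 means were 6.22 CPM in Mot_1, 51.0 CPM in Mot_3 and 51.8 CPM in Mot_4. Ppfibp1, which encodes liprin beta 1, a protein of the presynaptic liprin family, was at no more than 4.50 CPM in Mot_2 and at 20.2 CPM or more in every other sum (log2 fold -4.82 ± 0.55).

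Hormone receptors were also among the leading lower genes. Rxfp1, the relaxin receptor, was at 0 to 6.88 CPM in Mot_2 against means of 69.9 CPM in Mot_1 and 72.7 CPM in Mot_3. In Mot_4 Rxfp1 was at 0.96 to 31.1 CPM, which overlapped Mot_2. Prlr, the prolactin receptor, was at 0 to 1.42 CPM in Mot_2 and at 48.7 to 69.2 CPM in Mot_3. Its means were also low in Mot_1 (6.996 CPM) and Mot_4 (7.014 CPM), and the sums of both overlapped those of Mot_2. The log2 fold of Prlr in Mot_2 was -6.375 over Mot_3, -2.878 over Mot_1 and -3.092 over Mot_4. Etv1, an ETS transcription factor, kept a measurable level of 59.8, 11.8, 10.6 and 39.8 CPM in Mot_2 but was at 67.9 CPM or more in all 13 other sums (log2 fold -2.33 ± 0.38). Dmd, which encodes dystrophin, was at most 15.7 CPM in Mot_2 and at least 17.8 CPM elsewhere. Dpy19l1 (log2 fold -2.72) and the cadherin gene Cdh4 (-2.35) were as low in Mot_4 as in Mot_2, with log2 folds of Mot_2 over Mot_4 of 0.17 and 0.05. The others were Luzp2 (-4.61), the copine gene Cpne6 (-3.34), Cd59a (-2.82), an inhibitor of complement, Chchd5 (-2.51) and Ctxn2 (-2.27).

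Some of these differences were also counted cell by cell, with the cells of all animals pooled. Animal 5 gave 63.8% of the Mot_2 cells, and the other clusters mix the animals in other proportions, so the shares describe cells only. After thinning to 20000 UMIs, Hpca was found in 80.3% of Mot_2 cells, against 6.19% of Mot_1, 10.1% of Mot_3 and 49.3% of Mot_4 cells. Kcnip3 was found in 67.1% of Mot_2 cells and in 11.3%, 9.43% and 33.3% of the others in the same order. Both genes were thus seen in most Mot_2 cells rather than in a few rich ones. Sstr3, whose level is lower, was found in 25% of Mot_2 cells and in 0%, 5.03% and 18.8% of the others. Sema3e was found in 16.4% of Mot_2 cells and in 5.15%, 1.26% and 7.25% of the others. For Adgrf5 the share was 71.1% in Mot_2, against 3.09% in Mot_1, 5.03% in Mot_3 and 65.2% in Mot_4. In the opposite direction, Stxbp6 was found in 7.24% of Mot_2 cells and in 63.9%, 75.5% and 37.7% of the others, and Cbln2 in 2.63% against 57.7%, 81.8% and 14.5%.

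**Figure D3:**
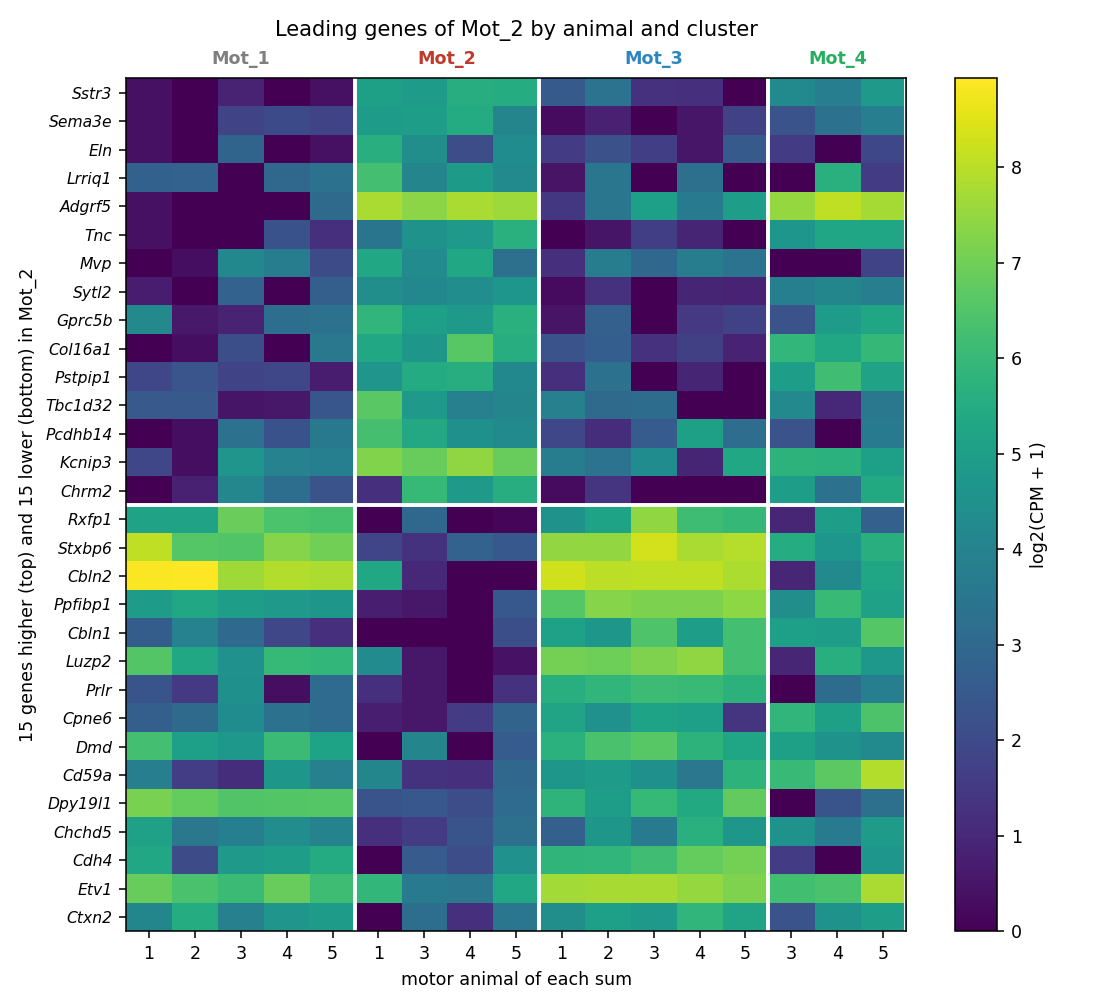
Colour gives log2(CPM + 1) for the 15 leading higher genes (top) and 15 leading lower genes (bottom) of Mot_2, in each of the 17 animal and cluster sums of motor cells. Sstr3, Sema3e and Kcnip3 are higher in all 4 Mot_2 columns than in all 13 others, while Adgrf5, Tnc, Col16a1 and Pstpip1 are also high in Mot_4.

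Gene lists by function gave the following counts against the backgrounds of 3.02% higher and 5.02% lower genes. At any size, 10.1% of all genes were higher and 15.3% lower in all 4 animals. The median log2 fold over all 13150 genes was 0.04. Of the 9 tested core relay markers, the list to which Tnnt1 belongs, 1 was higher and 2 were lower, 6 were lower in all 4 animals at any size and 2 higher, and the median was -0.29. Tnnt1 was the higher one, and Pvalb and Syt2 were the lower ones. Nefh (-0.50), Nefm (-0.29) and Vamp1 (-0.51) were lower in each animal, and Rora, a nuclear receptor, was higher in each (0.65). Direction in an animal was judged against the mean CPM of its other clusters, in which a high cluster weighs most. Scn4b counted among the 6 although its fitted log2 fold was 0.675. It was at 24.9 to 46.9 CPM in Mot_2, 103 to 160 CPM in Mot_1 and at most 5.08 CPM in Mot_4. The highest sums of all 6 were those of Mot_1. Without animal 1 the counts were 2 higher and 2 lower, as Abhd12b (1.32) joined Tnnt1, and the median was -0.11.

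Of the 33 tested genes of adhesion and wiring, 3 were higher and 3 lower, and the list median was 0.00. The higher ones were Cntnap4 (log2 fold 2.73 ± 0.78), a contactin-associated protein, Nrxn3 (1.20 ± 0.12), a presynaptic neurexin, and Tenm4 (1.01 ± 0.18), a teneurin. Cntnap4 was at 83.3 CPM in Mot_2 of animal 1 and at 10.4 to 12.3 CPM in the other Mot_2 sums. Those other sums lay below all Mot_4 sums (14.4 to 26.4 CPM), and without animal 1 its log2 fold was 1.83. Nrxn3 was at 1017, 1027, 999 and 906 CPM in Mot_2 and at 209 to 902 CPM in the other sums, so that the groups did not overlap. Of the lower ones, the protocadherin Pcdh17 was at 41.0, 29.0, 34.4 and 23.8 CPM in Mot_2 against at least 49.1 CPM in every other sum (log2 fold -2.02 ± 0.23).

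Axon guidance genes, which steer growing axons and are retained at synapses, counted 4 higher and 1 lower of 20, with a list median of 0.55. Beside Sema3e the higher ones were Ntn4 (2.76 ± 1.05), a netrin, Plxna4 (1.08 ± 0.41), a plexin that takes up semaphorin signals, and Unc5c (1.06 ± 0.25), a netrin receptor. Without animal 1 Plxna4 missed the 2-fold size, as did Tenm4 and Pcdh11x of the adhesion list, which left 3 higher and 1 lower guidance genes and 2 higher and 2 lower adhesion genes. Robo2, a receptor for Slit ligands, was lower (-1.95 ± 0.40). Of 13 synapse organizers and matrix genes, 6 were lower and 0 higher, with a median of -0.43, but this one-sided count did not hold without animal 1. There 2 were higher, Ncan (1.39) and Tnr (1.77), which encode proteins of the perineuronal matrix, 6 were lower and the median was -0.15. The lower genes over 4 animals were the cerebellins Cbln1, Cbln2 and Cbln4, the neurexophilin Nxph1, and the collagens Col12a1 and Col25a1. Nxph1 was at 35.7 to 68.3 CPM in Mot_2 and at 90.6 CPM or more in all 13 other sums. Cbln4 was above 2.55 CPM only in Mot_4, which set its fold. Col25a1 was at 29.6 CPM on average in Mot_2, 309 CPM in Mot_3 and 17.7 CPM in Mot_4, so its lower call came from the comparison with Mot_1 and Mot_3. Cbln1 and Cbln2 also stood in the list of matrix and midline markers, where they were the 2 lower genes of 6.

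Calcium-binding proteins split by family. Hpca, encoding the neuronal calcium sensor hippocalcin, was at 181, 110, 157 and 160 CPM in Mot_2, above all 13 other sums (at most 89.6 CPM), with a log2 fold of 2.68 ± 0.44. Hpcal4, a relative, had a log2 fold of 1.52 ± 0.41, but its level in Mot_2 (28.9 CPM) was below that in Mot_4 (39.6 CPM). Of the calcium buffers, Calb1 was lower than in Mot_3 and Mot_4 and higher than in Mot_1: it was at 313 CPM ± 101 (SD, n = 4) in Mot_2 and at means of 166, 954 and 1251 CPM in Mot_1, Mot_3 and Mot_4. Calb2, which encodes calretinin, was at 16.8, 22.1, 13.9 and 6.64 CPM in Mot_2 and at 341 CPM in Mot_4. Pvalb, which encodes parvalbumin, was at 0.49 to 16.1 CPM in Mot_2 and at 217 to 495 CPM in Mot_1, but at 0 to 1.00 CPM in Mot_4. Its fitted log2 fold was -1.01 ± 0.98 and changed sign to 0.21 without animal 4.

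Ion channels and receptors showed single members that stood out from lists with medians between 0.19 and 0.47. Kcnip3 was the 1 higher gene among 14 Kv2, Kv3 and Kv4 channel genes. Among 14 high-voltage calcium channel genes, 8 sodium channel genes and 7 Kv1 channel genes, 0 passed in either direction. Of 15 M, leak, SK and BK potassium channel genes, Kcnq5 (-2.34 ± 1.45) and Kcnk10 (-3.54 ± 1.54) were lower. Of 6 T-type calcium and HCN channel genes, Cacna1i was lower (-1.43, SE 14.4). These lower genes were at no more than 4.42 CPM in Mot_2, and their ranges overlapped those of the other sums. Of 10 genes of AMPA receptors and their partners, Cnih3 and Shisa6 were higher, which encode auxiliary proteins that alter receptor traffic and gating. Cnih3 was at 172 to 225 CPM in Mot_2, at most 26.96 CPM in Mot_1 and 46.8 CPM in Mot_3, but at 136 to 204 CPM in Mot_4. Shisa6 was at 52.4, 118, 149 and 193 CPM in Mot_2, with a log2 fold of 1.55 ± 0.29, and its folds over Mot_1, Mot_3 and Mot_4 were 1.91, 1.26 and 1.48. Of 16 further glutamate receptor genes, the kainate receptor subunit Grik1 was higher (2.47 ± 0.59), again shared with Mot_4, and Grik4 (-1.91) and the NMDA receptor subunit Grin3a (-1.33) were lower. Gabrg3, a GABA-A receptor gamma subunit, was higher (2.503 ± 0.79), the only one of 14 GABA receptor genes. Without animal 1 the kainate subunit Grik3 (1.115) was higher too, and the GABA-A subunit Gabra2 (-1.04) and the pacemaker channel gene Hcn4 (1.10) passed, lower and higher. Of 16 neuromodulator receptor genes 2 were higher, Chrm2 and the serotonin receptor Htr2c. Both overlapped with Mot_4, where Htr2c was at 31.1 to 92.3 CPM and Chrm2 at 9.02 to 42.2 CPM. The 4 counted as lower were Htr7, another serotonin receptor, Hrh1, Chrm1 and Drd1. The last pair were at no more than 0.12 CPM in Mot_2, but Chrm1 was also at 0 in all Mot_1 sums and Drd1 in all Mot_4 sums, so their folds could not be estimated and the count of 4 includes them by the size rule alone.

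Of 20 transcription factors that pattern the thalamus, Foxp2 was higher (1.21 ± 0.21) and Etv1 lower. Foxp2 was at 257, 360, 304 and 286 CPM in Mot_2, at 293 CPM on average in Mot_4, and at 76.4 and 94.2 CPM in Mot_1 and Mot_3. Below 2-fold, Tcf7l2 and Lef1, which act in Wnt signalling and are broad markers of thalamic neurons, were higher in Mot_2 in each animal, with log2 folds of 0.61 ± 0.09 and 0.62 ± 0.16. Prkcd, a protein kinase C used as a marker of sensory and motor relay nuclei, was at 2227, 3101, 3556 and 3175 CPM (0.64 ± 0.10).

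Of 5 tested neuropeptide genes, Vgf was the 1 higher. It encodes a secreted precursor of neuroendocrine peptides and was at 152 to 182 CPM in Mot_2, at most 21.6 CPM in Mot_1 and at 166 to 195 CPM in Mot_4. Of 20 genes of vesicle release, the priming factor Unc13b was higher (1.63 ± 0.58) and Syt2, Sv2c and Cplx2 were lower. Sv2c was at 0 in Mot_2 but at most 12.9 CPM elsewhere, with 0 also among the other sums. Cplx2 was at most 0.12 CPM in Mot_2 and 0.42 CPM in Mot_1, and highest in Mot_4 (1.92 to 33.7 CPM). Syt2, the calcium sensor of fast release, was at most 4.42 CPM in Mot_2 and at 79.5 to 174 CPM in Mot_1, but it was at most 2.23 CPM in Mot_3 and Mot_4, so that Mot_1 alone set its fold. Of 13 immediate early genes, which respond to activity and to handling, Egr1 was higher (1.07 ± 0.27) and Nr4a3 lower, with a list median of 0.68, and without animal 1 Egr1 missed the 2-fold size while Arc (3.74), Ier2 (1.25) and Btg2 (2.05) passed it. Nr4a3 was near the floor, at 0 to 1.96 CPM in Mot_2 and 0 to 5.15 CPM in the other sums. Its log2 fold ran from -2.78 to -0.05 over the other settings. The part of cell handling in this list was not tested. Of 18 signalling kinases and RGS genes, 0 were higher and 3 lower (Prkca, Plcb1 and Rgs6). At any size, however, 10 were higher in all 4 animals, against 10.1% of all genes, and the median was 0.51. Without animal 1, Rgs6 missed the 2-fold size.

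Genes of energy metabolism were lower together, by small factors. Of the 48 nuclear respiratory chain genes, which encode subunits of the mitochondrial complexes, 43 were lower in Mot_2 in all 4 animals at any size. Over all genes 15.3% were lower in all 4 animals and 10.1% higher. The list median was -0.50. The 2-fold size was reached by 1 of them, Ndufb9, a complex I subunit (-1.03 ± 0.13), and without animal 1 by 0. Examples are Cox4i1 (-0.85), a subunit of cytochrome c oxidase, Sdhb (-0.90), of succinate dehydrogenase, and Uqcrc1 (-0.86), of the cytochrome bc1 complex, and Atp5l was the 1 member higher in all 4 animals (0.56). Without animal 1 the count was 44 of 48, against 21% of all genes, and the median was -0.40. The highest sums of Cox4i1, Sdhb and Uqcrc1 were those of Mot_1. Uqcrc1 in Mot_2 (129 to 263 CPM) overlapped Mot_4 (206 to 244 CPM), as did Sdhb, while Cox4i1 (553 to 1249 CPM) lay below Mot_4 (1399 to 1733 CPM). Of 16 glycolysis enzymes, 11 were lower in all 4 animals and the median was -0.43, with Aldoc (-1.93 ± 0.30) the 1 gene past 2-fold. The 8 tested genes that the mitochondrial genome encodes had a median of 0.01, and 0 passed in either direction. Without animal 1 the median was -0.13, 5 of 8 were lower in all 3 animals (62.5%) and mt-Nd6 passed the 2-fold size (-1.11). Cells of Mot_2 also had lower median UMIs per spike-in UMI, as given above, and the part of RNA content in these small differences was not tested.

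Neurofilament genes, whose products set axon calibre, were also lower in every animal in 4 of 5 cases, with a median of -0.47. The order was Mot_1, then Mot_3, then Mot_2 for Nefm, with means of 2882, 1265 and 870 CPM, and Mot_4 was lower still at 352 CPM. The Mot_2 sums (646 to 1037 CPM) overlapped those of Mot_3 (798 to 1572 CPM). Nefh followed the same order, with 1055, 542, 267 and 108 CPM. Ina ran in this order too, at 667 to 1358 CPM in Mot_1 and 470 to 854 CPM in Mot_3. It was at 291 to 490 CPM in Mot_2 and at 201 to 335 CPM in Mot_4. Nefl in Mot_2 (408 to 482 CPM) lay within its range in Mot_4 (351 to 602 CPM). Prph did not share the order: it was at most 2.73 CPM in Mot_2 and at least 39.4 CPM in Mot_4.

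**Figure D4:**
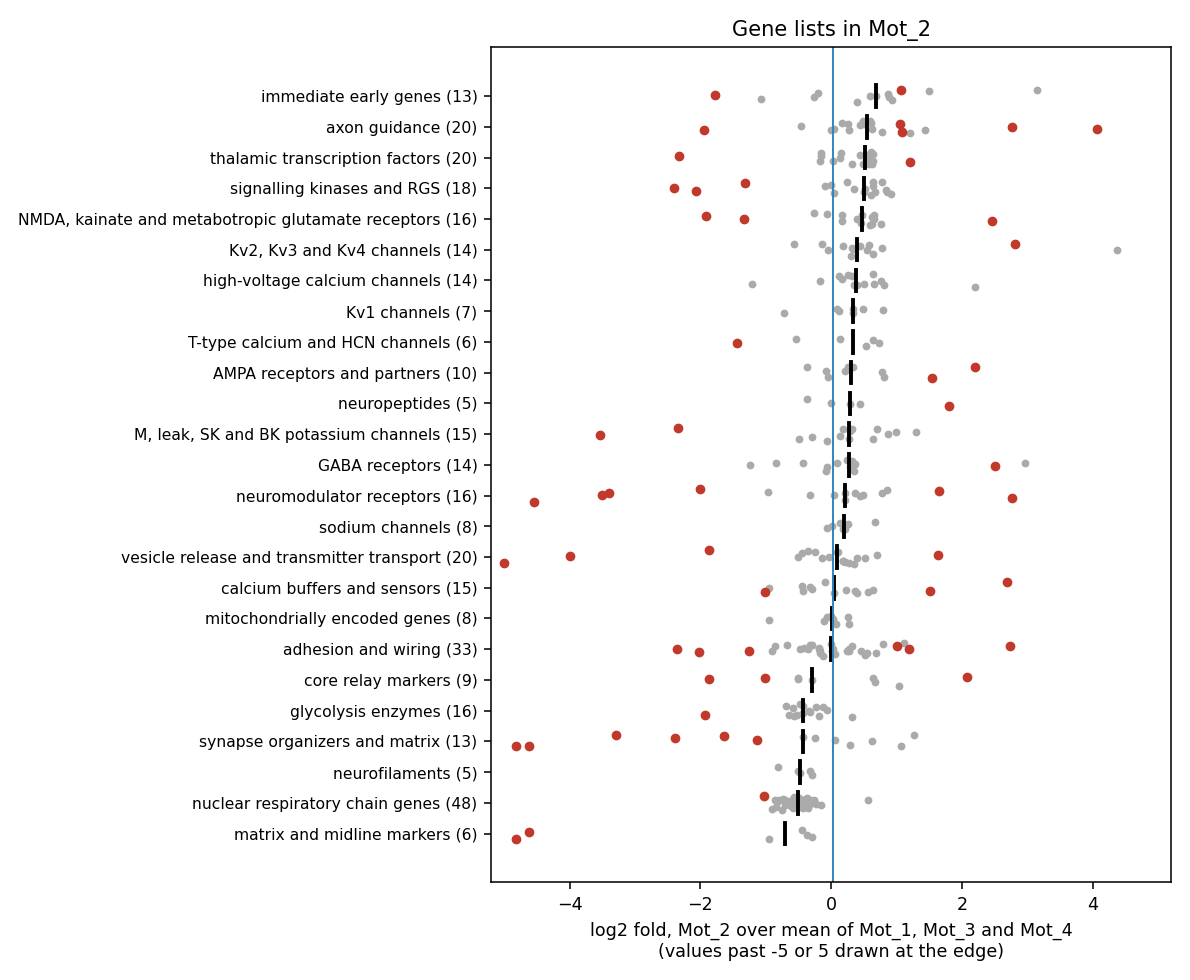
Each point is a gene, placed by its log2 fold of Mot_2 over the mean of Mot_1, Mot_3 and Mot_4, in rows for the gene lists with at least 5 tested genes (number in brackets), with the list median as a black bar and the median of all genes (0.04) as a blue line. Red points passed the 2-fold size in all 4 animals; the respiratory chain genes lie in a narrow band around -0.50, while synapse organizers spread down to -4.82.

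The authors' table also gives each cell a cluster from a joint division of all systems into 9 groups. Joint cluster 2 took 122 of the 152 Mot_2 cells (80.3%), joint cluster 1 took 15, and the other joint clusters 15. The share in joint cluster 2 was 72.7% in animal 1, 69.6% in animal 3, 70.0% in animal 4 and 85.6% in animal 5. The 15 Mot_2 cells in joint cluster 1 held more of the neurofilament transcripts: Nefm was at 1655 CPM in their pooled counts against 813 CPM in the 122 cells, and Nefh at 519 against 224 CPM. Their Tcf7l2 was lower, at 632 against 1254 CPM, and their median depth was higher, at 120723 against 69377 UMIs. Both sets were rich in Tnnt1, with 526 and 373 CPM, and both lacked Stxbp6, with 4.77 and 4.22 CPM. These are pooled cells from the same animals and carry no test.

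Joint cluster 2 also took 123 of the 132 cells of Som_2 (93.2%), a cluster of neurons that project to somatosensory cortex, as well as 31 of the 69 Mot_4 cells (44.9%) and 2 of the 97 Mot_1 cells. By the root mean square difference of log2(CPM + 1) over the 12175 genes, Som_2 was the nearest of the 16 other clusters to Mot_2 (0.63), followed by Vis_2 (0.75) and Mot_3 (0.77). Mot_1 (0.92) and Mot_4 (0.93) were eighth and ninth. Such differences shrink with the number of cells and animals behind a mean, so that the order is a description.

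Mot_2 was therefore set against 3 Tnnt1-rich clusters of other animals, with edgeR's quasi-likelihood test and sequencing batch as a term. Som_1 and Som_2 came from somatosensory-projecting and Aud_1 from auditory-projecting neurons. All somatosensory sums were in batch 2, where Mot_2 had only animal 5. With the batch term, the other 3 Mot_2 animals entered the contrasts with Som_1 and Som_2 through the Aud_1 sums of their batches. Within batch 2 alone, 36 genes were higher and 39 lower against Som_1. The comparison with Som_2 was added after the joint clusters had been seen. These clusters too were drawn by the authors from these counts, and the p-values measure the spread between animals only.

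Against Som_2, 0 of 12484 genes passed an adjusted p of 0.05 (0% higher and 0% lower, edgeR quasi-likelihood test with Benjamini-Hochberg adjustment, 4 against 3 animals). At an unadjusted p under 0.05 there were 149 of 12484, a smaller share than the 0.05 that no difference would give on average. Against Som_1 and Aud_1 there were 1315 and 1334 of 13096. DESeq2 called 1 gene against Som_2. That gene was Tenm2, a teneurin, and it was singled out after its values had been seen. Tenm2 was at 105, 96.7, 93.1 and 90.4 CPM in Mot_2 and at 37.3, 30.2 and 24.04 CPM in Som_2, with no overlap (log2 fold 1.54 ± 0.26, SE; edgeR adjusted p = 0.6, DESeq2 adjusted p = 0.00068). Necab1, a neuronal calcium-binding protein, was at 152, 131, 89.2 and 73.0 CPM in Mot_2 and at 26.1, 9.76 and 0.35 CPM in Som_2 (2.5 ± 0.77; edgeR adjusted p = 1). With no filter on low counts, edgeR called Necab1 (adjusted p = 2.7e-05), Tenm2 (adjusted p = 0.039) and Erdr1 (adjusted p = 0.048). The absence of calls does not show that the clusters are alike. Leading genes of Mot_2 differed from Som_2 by log2 folds of 0.00 ± 0.29 for Kcnip3, -0.27 ± 0.82 for Sstr3, -0.43 ± 0.27 for Hpca and -0.64 ± 0.39 for Tnnt1. Stxbp6 was at 9.69 CPM in Som_2.

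Against Som_1, 20 of 13096 genes (0.153%) were higher in Mot_2 and 38 (0.29%) lower at an adjusted p under 0.05, with 4 and 2 animals. Scn3b, an auxiliary beta subunit of sodium channels, was at 193, 174, 58.1 and 112 CPM in Mot_2 and at 0.18 and 0.87 CPM in the Som_1 animals (log2 fold 7.54 ± 0.73; edgeR adjusted p = 0.0029). It was the 1 called gene of 8 in the sodium channel list, which had a median of -0.16 and 5 members below 0. Necab1 was higher by 6.24 ± 0.61 and was at 0.35 and 1.24 CPM in Som_1. Tcf7l2 was at 1145 CPM ± 87.5 (SD, n = 4) in Mot_2 and 432 ± 25.3 (n = 2) in Som_1, a log2 fold of 1.34 ± 0.15. Sema3e had 0 counts among the 13714652 UMIs of Som_1. Against a floor of 3 counts for both animals together it was at least 138-fold higher in Mot_2. Speg and Sphkap had 3 counts each in Som_1, and their ratios were 129 (counting interval 43.8 to 628) and 122 (41.3 to 593). Enc1 (3.6), Fam102b (3.89) and Dbpht2 (3.35) completed the 8 leading higher genes.

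The genes lower in Mot_2 than in Som_1 were led by Pvalb, and neurofilament, Kv1 channel and energy metabolism genes were among them. Pvalb was at 135 and 173 CPM in the Som_1 animals against 0.49 to 16.1 CPM in Mot_2 (-4.71 ± 0.61; edgeR adjusted p = 0.0087). All 3 neurofilament subunits that are named for their size passed, with log2 folds of -1.77 ± 0.22 for Nefm, -1.66 ± 0.25 for Nefl and -1.65 ± 0.28 for Nefh. The Kv1 channel gene Kcna1 (-1.58 ± 0.29) and its beta subunit Kcnab3 (-2.80 ± 0.37) were lower, as were Vamp1, a synaptobrevin of vesicle fusion (-1.71 ± 0.28), and Eps8l2 (-2.45 ± 0.39). Of 48 nuclear respiratory chain genes 10 were called lower and 0 higher, 47 had a fold below 0, and their median was -0.93 against 0.09 over all genes. Of 16 glycolysis enzymes 5 were called lower, among them Gapdh and Pkm, with a median of -0.89. Tnnt1 itself did not pass (-0.79 ± 0.45; edgeR adjusted p = 0.63), nor did the core marker Abhd12b (0.86 ± 0.46; edgeR adjusted p = 0.6). Som_1 had 2 sums, and the counts moved with single animals. They were 6 higher and 6 lower without somatosensory animal 2, 10 and 10 without somatosensory animal 3, 9 and 7 without motor animal 3, 13 and 18 without motor animal 4, and 17 and 15 without motor animal 5. They were 44 and 69 without motor animal 1. Auditory animals share the fit, and the counts were 43 and 69 without auditory animal 2, 11 and 15 without animal 3, 14 and 17 without animal 4, and 12 and 25 without animal 5. Of the 16 named genes, Scn3b, Necab1, Enc1, Fam102b and Nefm passed under all 16 alternatives.

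Against Aud_1, 16 of 13096 genes (0.122%) were higher in Mot_2 and 11 (0.084%) lower, with 4 animals each. Rgs4, a regulator that shortens G protein signals, was at 702, 894, 840 and 755 CPM in Mot_2 and at 269, 193, 175 and 211 CPM in Aud_1 (log2 fold 1.87 ± 0.15; edgeR adjusted p = 0.00059). Cnih3 was at 172 to 225 CPM against 20.8, 8.60, 1.94 and 13.6 CPM in Aud_1 (4.34 ± 0.45; edgeR adjusted p = 0.003), and Ccdc141, a coiled-coil protein, was higher by 5.74 ± 0.52. These groups did not overlap. Other higher genes were Opcml (2.22 ± 0.31), an adhesion protein of the IgLON family, Ryr3 (2.18 ± 0.31), a ryanodine receptor that releases stored calcium, Wnt9b (5.34 ± 0.85), Fam19a2 (5.23 ± 0.77) and Abhd12b (2.43 ± 0.35). Cald1, which encodes caldesmon, had 1 count in Aud_1, and its ratio was 211 (counting interval 37.5 to 8340). Prkcd was higher by 0.89 ± 0.15.

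Genes lower than in Aud_1 included Calb2, at 6.64 to 22.1 CPM in Mot_2 and 416, 121, 47.8 and 176 CPM in Aud_1 (-3.76 ± 0.41; edgeR adjusted p = 0.003). Kcnab3 was lower here too (-2.56 ± 0.28). Vipr2, a receptor for vasoactive intestinal peptide, was lower by a log2 fold of -3.39 ± 0.48, and the chromatin factor Tox by -2.08 ± 0.24. Fam19a1, a secreted chemokine-like protein, was at no more than 0.67 CPM in all 4 Mot_2 sums and at 73.8 to 128 CPM in Aud_1 (-7.43 ± 0.86). The adhesion protein Negr1 (-1.89 ± 0.26), Tcerg1l (-6.46 ± 1.09) and the glutathione transferase Gstm5 (-1.67 ± 0.25) made up the rest of the 8 leading lower genes. The nuclear respiratory chain genes had a median of -0.14 against 0.05 over all genes, and 0 of 48 were called. Tnnt1 (-1.29 ± 0.35; edgeR adjusted p = 0.21) and Calb1 (-1.22 ± 0.24; edgeR adjusted p = 0.07) did not pass. Only Ccdc141 and Cnih3 of the 16 named genes passed under all 16 alternatives, and single animals moved these counts too. They were 4 higher and 1 lower without auditory animal 5, 5 and 6 without motor animal 3, 3 and 5 without motor animal 4, 36 and 20 without somatosensory animal 2, and 32 and 20 without somatosensory animal 3. The comparisons with Som_1 and Aud_1 share the Mot_2 sums, so the lower Kcnab3 in each rests in part on the same values.

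**Figure D5:**
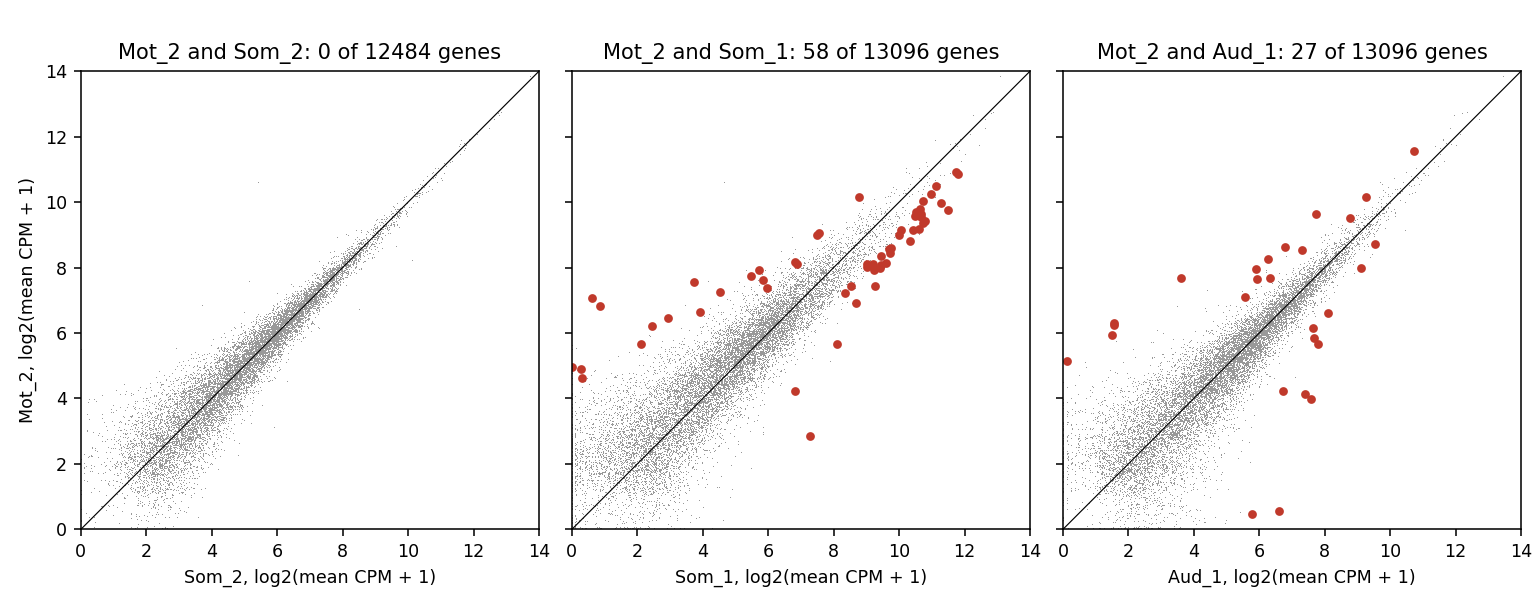
Each point is a gene, placed by its mean level in a cluster of another projection system (x axis) and in Mot_2 (y axis), both as log2(CPM + 1); red points passed an adjusted p of 0.05 in edgeR's quasi-likelihood test and the line marks equal levels. There are 0 red points for Som_2, 58 for Som_1 and 27 for Aud_1.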

How the data were processed

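The authors deposited 1 table of UMI counts per cell and gene (36589 gene columns and 90 spike-in columns) and 1 table of cell annotations. Per the submitters' processing notes, cutadapt 1.16, STAR 2.5.3 and Picard 1.12 were used with the mm10 build; how the clusters were made is not given in the sources used here. The deposited values were whole counts in all 1972 cells. Group names and cells came from the authors' table; the members and gene lists here were chosen with earlier results of these data known.

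Raw counts were summed per animal and cluster where at least 10 cells existed, giving 17 motor sums with 997472 to 14358842 UMIs each. The filter on low counts was edgeR's filterByExpr, and scaling was by TMM (edgeR 4.0.16, R 4.3.3), with animal as a block among motor clusters and sequencing batch as a term between systems. Mot_2 against the mean of the other motor clusters gave folds and SE without p-values. Tests between systems used the quasi-likelihood test at an adjusted p of 0.05 (Benjamini-Hochberg), and DESeq2 1.42.0 served as an alternative. Levels are CPM of these sums. The scripts were tested on simulated data.

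Named genes were the 15 largest folds up and 15 down among motor clusters, at a mean of at least 20 CPM in the higher group, and the 8 up and 8 down between systems, at a mean of at least 10 CPM, without unnamed gene models; list members may be named too. Rgs4, Tenm2 and the 15 cells of joint cluster 1 were described, and the comparison with Som_2 was added, after values had been seen. Animals are those of the authors' table, and p-values measure the spread between them; clusters of 1 animal are paired by that animal. The 20 cells that carry a mark in the authors' table have no cluster and entered no sum. Those labelled from motor cortex count in the denominators of the Mot_2 shares, so leaving them out would change the shares of animals 1, 2 and 3. In animal 3, for example, 80 motor cells were counted, with 23 in Mot_2 and 53 in the other motor clusters. Exact intervals cover counting error only. No doublet caller was run.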

Additional observations from a re-analysis of the deposited data

Results flagged for a closer look

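Of 48 values of Mot_2 looked at over animals, 7 had 1 animal far from the other 3, and it was animal 1 each time. The rule marks about 1 value in 20 by chance only where values are independent and of equal, normal spread. These values came from the same animals, and animal 1 rests on 11 cells. That rate therefore cannot tell whether 7 is more than chance would give. Tnnt1 was at 86.7 CPM in animal 1 against 416 to 420 CPM in the others. Htr2c was at 5.38 CPM against 41.3 to 44.9 CPM, and Ndufb9 at 158 CPM against 311 to 338 CPM. Cbln2 was high there, at 39.0 CPM against 0 to 0.98 CPM, as were Cntnap4, at 83.3 CPM against 10.4 to 12.3 CPM, and Tbc1d32, at 99.5 CPM against 13.9 to 26.5 CPM. The median depth of the Mot_2 cells of animal 1 was 130800 UMIs against 68400 to 72890. Animal 1 is the only Mot_2 sum of batch 1 and the smallest, with 11 cells, so batch, age and animal cannot be told apart there.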

How the results depend on the processing

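The motor comparison gave 391 higher and 592 lower genes with no replicate block, against 397 and 660 with the animal as a block. Leaving out 1 animal at a time gave 396 to 752 higher and 630 to 1262 lower genes. Other settings gave 391 to 593 higher and 443 to 952 lower genes. Of 74 named or listed genes, 50 kept a similar log2 fold under every setting in which they were tested. Similar means a change smaller than the SD of the gene's log2 ratio over animals. Genes with a wide spread over animals therefore pass more easily. Adgrf5, with an SD of 2.77, was among the 50 although its log2 fold ran from 3.12 to 5.14. The rule does not ask whether a gene still passed the 2-fold size. Egr1, Ndufb9, Tenm4, Plxna4, Rgs6 and Pcdh11x are among the 50 but missed that size without animal 1. The sign changed in 1 value: the log2 fold of Pvalb was 0.21 without animal 4. With other animals left out it was as low as -1.97, and with each cell weighted equally it was -2.30.

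Calls against other systems depended more on the setting, and the cause was not tested. DESeq2 called 247 higher and 183 lower genes against Som_1, 261 and 154 against Aud_1, and 1 higher against Som_2. With no filter on low counts these were 141 and 145, 157 and 89, and 3. Against Som_1, 38 were higher with no batch term, 36 within batch 2 alone and 36 at a minimum of 5 cells. Within batch 2 alone, 7 were higher and 2 lower against Aud_1. Leaving out 1 animal at a time gave 6 to 44 higher and 6 to 69 lower against Som_1, 3 to 36 and 1 to 20 against Aud_1, and 0 against Som_2. A group left with 1 sum was assumed to vary like the others. The log2 ratio of UMIs per cell ran from -0.58 to -0.29 and that of UMIs per spike-in UMI from -0.53 to -0.26, below 0 in each case.

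Mot_2 has 4 sums, and its smallest rests on 11 cells. Genes at a few CPM rest on a few counts there, and a gene at 0 may be below detection.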
